A study of Mus musculus with 60 samples.

Results

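The transcripts described here are those of 8 genes of fatty acid oxidation that are textbook targets of the nuclear receptor PPAR-alpha: Cpt1a, Ehhadh, Cyp4a10, Cyp4a14, Acot1, Pdk4, Angptl4 and Fgf21. They were found on the array through the RefSeq transcript that each probe is assigned to, which gave 11 probes out of 55681, with 3 probes for Cyp4a10, 2 for Cpt1a and 1 for each of the other genes. Each gene is described by its brightest probe, and the other probes are named where they differ. Probes of Acot1 and Cyp4a10 may also bind the transcripts of near-identical neighbours (Acot2, and Cyp4a31 and Cyp4a32), so their values are uncertain to that extent.

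Adult male Muta™Mouse, a transgenic strain that carries lacZ copies for mutation testing, received benzo(ghi)perylene (BghiP, a polycyclic aromatic hydrocarbon) by gavage for 28 days, at about 10 weeks of age. The vehicle, olive oil, was given to every mouse, and the daily dose of BghiP was 0 in D0, 6.25 in D1, 12.5 in D2 and 25 in D3, in mg per kg of body weight. Each group held 5 mice, numbered 1 to 5 in D0, 6 to 10 in D1, 11 to 15 in D2 and 16 to 20 in D3, and lung, liver and forestomach were taken from all of them 72 hours after the last dose. RNA of 1 tissue of 1 mouse (red, Cy5) was hybridised with a commercial pool of RNA from 11 mouse cell lines (green, Cy3), giving 60 arrays. A value is the log2 of red over green, so that 1 unit is a doubling, and values of a gene can be compared between arrays but not with those of another gene.

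PPAR-alpha is switched on by fatty acids and by fibrate drugs, and works as a pair with the receptor RXR on repeats of the core AGGTCA. In the fasted liver it turns on genes that carry fatty acids into mitochondria, oxidise them in peroxisomes, hydroxylate them in microsomes and export ketone bodies. Of the members, Cpt1a is the mitochondrial gatekeeper, Ehhadh the peroxisomal bifunctional enzyme, Cyp4a10 and Cyp4a14 are omega-hydroxylases, and Acot1 is a cytosolic acyl-CoA thioesterase. Pdk4 is the kinase that shuts off pyruvate dehydrogenase, and Angptl4 and Fgf21 are secreted, the first as an inhibitor of lipoprotein lipase and the second as a fasting hormone.

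RefSeq's promoter table (GRCm38.p6) held 5 of the 8 genes (Cpt1a, Ehhadh, Acot1, Pdk4 and Fgf21), and Cyp4a10, Cyp4a14 and Angptl4 had no entry. The 250 bases before the start of Cpt1a and Fgf21 are shown because these genes varied together between mice in liver. Both read 5′ to 3′ on the strand of the gene, and capitals mark the AGGTCA core, which reads TGACCT where it lies on the opposite strand. The Cpt1a window spans chr19:3323051-3323300 on the plus strand and the Fgf21 window spans chr7:45615491-45615740 on the minus strand.
Cpt1a: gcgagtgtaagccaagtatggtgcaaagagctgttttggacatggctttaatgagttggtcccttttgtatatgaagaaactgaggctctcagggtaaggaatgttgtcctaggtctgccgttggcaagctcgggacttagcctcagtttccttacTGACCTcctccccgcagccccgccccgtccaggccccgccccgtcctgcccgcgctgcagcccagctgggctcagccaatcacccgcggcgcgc
Fgf21: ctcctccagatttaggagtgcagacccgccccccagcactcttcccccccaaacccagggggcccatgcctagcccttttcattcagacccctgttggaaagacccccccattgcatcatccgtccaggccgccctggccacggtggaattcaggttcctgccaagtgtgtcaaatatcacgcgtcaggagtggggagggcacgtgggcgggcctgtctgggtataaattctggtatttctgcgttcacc
The core was searched on both strands and lay once in the Cpt1a window, 94 bases before the start, and not in the other 4 windows. Of all 32851 windows of the same length in the table, 14% held it. A pair of such cores with 1 base between them and any base at position 4 of each, AGGNCANAGGNCA, which can overlap a match to the core, was in none of the 5 windows and in 0.338% of all windows. TATAAA was in 12.4% of all windows and, of the 5, in that of Fgf21. These are matches of letters and not measured binding.

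Markers set the tissues apart: over the 20 arrays of each tissue, the mean of 7 hepatocyte genes was 7.05 to 8.06 in liver, that of 5 lung epithelial genes 6.93 to 7.63 in lung, and that of 6 squamous epithelial genes 4.01 to 5.11 in forestomach. Single arrays also held markers of another tissue. The lung array of mouse 1 had a skeletal muscle mean of 4.93, against -0.72 to 0.44 in the other lungs, and a squamous mean of 4.02. The lung array of mouse 20 had a hepatocyte mean of 3.23, and the forestomach array of mouse 2 a lung epithelial mean of 5.88. In forestomach the glandular stomach mean ran from 0.24 to 7.98 and the fat cell mean from 0.75 to 5.37. Between 25068 and 31019 probes per tissue were red above background on at least 5 of 20 arrays and were tested. Cyp4a14 and Fgf21 were not well above background on any lung or forestomach array. In liver Cyp4a14 was so on 9 of 20 arrays and Fgf21 on 16, and Cyp4a10 was so on 16 of 20 forestomach arrays. In bulk tissue, fewer cells of a type and less RNA per cell cannot be told apart.

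**Figure D1:**
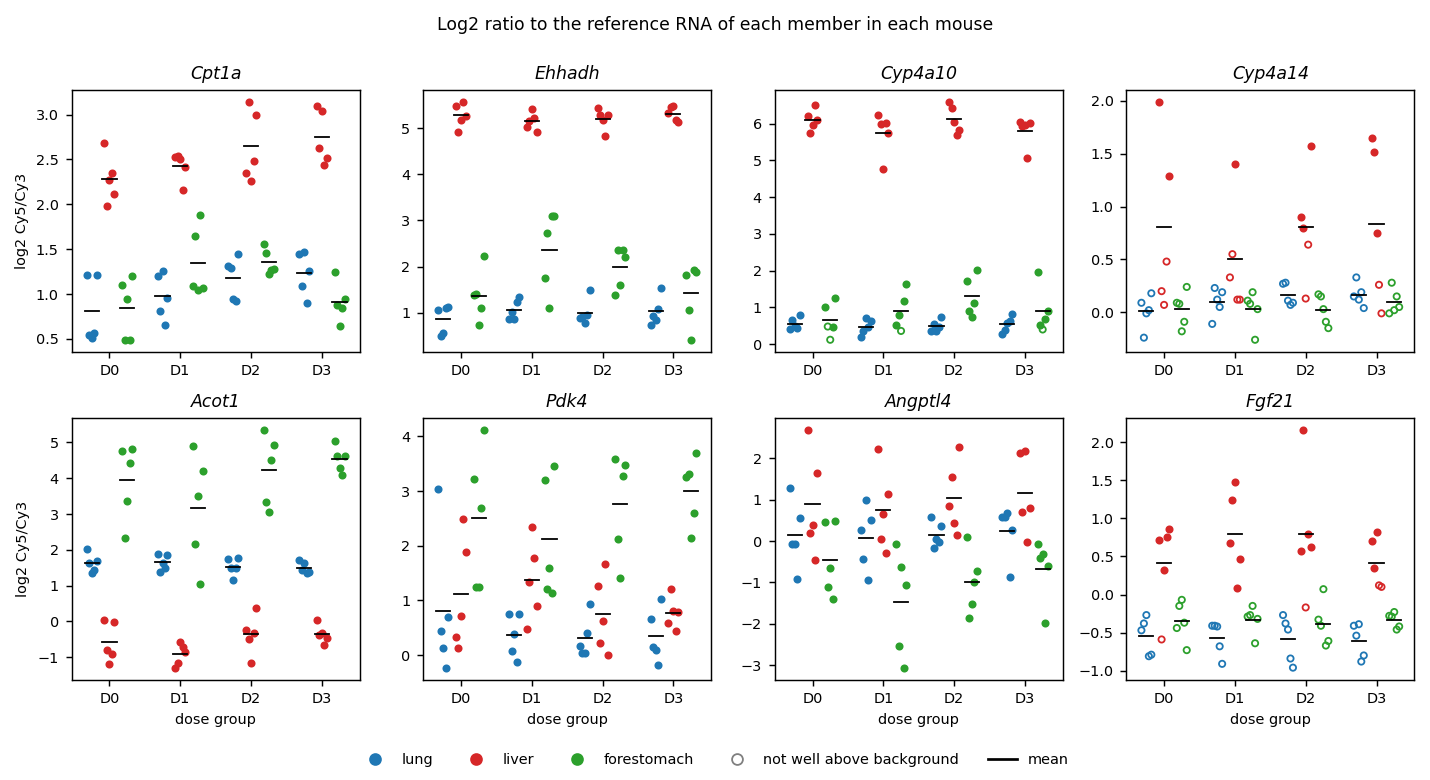
Log2 ratio of red tissue RNA over green reference RNA (vertical axis) of each of the 8 genes by dose group (horizontal axis). Each point is 1 mouse, colours are tissues, open points were not well above background and black lines are means of 5 mice. Cyp4a10 and Ehhadh in liver lie above every lung and forestomach value, and Acot1 is highest in forestomach.

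Without exposure, the oxidative enzymes were highest in liver. Cyp4a10 showed the largest gap, at 6.22, 5.75, 5.96, 6.51 and 6.09 in the livers of mice 1 to 5. In the same order it was 0.40, 0.65, 0.49, 0.45 and 0.80 in lung, and 1.01, 0.48, 0.12, 0.46 and 1.26 in forestomach. Every liver thus exceeded every other tissue by more than 4 log2 units, whereas lung and forestomach overlapped. The difference was 5.55 ± 0.25 log2 units from lung (SE, 46.8-fold, adjusted p = 5.94e-26) and 5.44 ± 0.25 from forestomach (43.5-fold, adjusted p = 1.6e-25). The other 2 Cyp4a10 probes were also called higher in liver, but no control lung and at most 1 control forestomach was well above background for them, so they give no size.

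Ehhadh in the 5 control livers was 5.48, 4.91, 5.19, 5.57 and 5.27. Its lung values were 1.06, 0.50, 0.55, 1.10 and 1.13, and its forestomach values 1.39, 1.41, 0.72, 1.10 and 2.23. Liver stood apart from both, by 4.42 ± 0.27 (21.3-fold, adjusted p = 6.17e-21) and 3.92 ± 0.27 (15.1-fold, adjusted p = 1e-18). Lung was 0.50 ± 0.27 below forestomach (95% interval -1.04 to 0.03, adjusted p = 0.111), which was not called. With the red and green signals processed by the scanner program this difference was -1.11 and was called (adjusted p = 5.93e-05). Cpt1a in control liver was 2.68, 1.98, 2.27, 2.35 and 2.12, in lung 1.21, 0.54, 0.51, 0.57 and 1.21, and in forestomach 1.10, 0.49, 0.94, 0.49 and 1.20. It exceeded lung by 1.47 ± 0.18 (2.77-fold, adjusted p = 4.04e-10) and forestomach by 1.44 ± 0.18 (2.71-fold, adjusted p = 9.58e-10), with no overlap. Lung and forestomach differed in Cpt1a by -0.04 (95% interval -0.40 to 0.33, adjusted p = 0.885).

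Cyp4a14 and Fgf21 were not well above background in every control liver. Cyp4a14 in control liver was 1.99, 0.20, 0.07, 0.48 and 1.29, and only mice 1 and 5 were well above background. Set against the lowest signal measurable in the dim tissue, its red signal in liver was at least 1.26-fold that in lung (adjusted p = 0.00421) and at least 1.23-fold that in forestomach (adjusted p = 0.00602). Without mouse 1 neither was called (adjusted p = 0.0683 and 0.0938). Fgf21 in control liver was 0.71, -0.59, 0.32, 0.75 and 0.86, well above background in 4 of 5 mice, with mouse 2 lowest. It was at least 1.56-fold higher than in lung (adjusted p = 0.000764) and at least 1.47-fold higher than in forestomach (adjusted p = 0.00748), and the second call was lost without mouse 5 (adjusted p = 0.0853). These bounds come from the red channel alone, after scaling between arrays, and without dye swaps they may carry dye bias, while the p-values beside them are those of the log2 ratios. Both genes entered the tissue comparison through liver alone.

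Acot1 ran the other way, being highest in forestomach, then lung, then liver. Its values in mice 1 to 5 were 4.76, 2.33, 3.37, 4.43 and 4.83 in forestomach, 2.01, 1.62, 1.35, 1.45 and 1.70 in lung, and 0.03, -0.81, -1.18, -0.92 and -0.01 in liver. No control value of a tissue overlapped with another's. Liver was 2.20 ± 0.42 below lung (4.6-fold, adjusted p = 9.23e-06) and 4.52 ± 0.42 below forestomach (23-fold, adjusted p = 9.75e-14), and lung was 2.32 ± 0.42 below forestomach (4.99-fold, adjusted p = 6.28e-06).

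Pdk4 was also highest in forestomach, at 3.22, 1.24, 1.24, 2.69 and 4.12, against 3.03, 0.44, 0.13, -0.23 and 0.69 in lung and 0.33, 0.13, 0.71, 2.49 and 1.89 in liver. The lung of mouse 1, whose array held the muscle markers, was far above the other control lungs. Forestomach exceeded lung by 1.69 ± 0.52 (3.22-fold, adjusted p = 0.00503, and 0.0618 without mouse 5) and liver by 1.39 ± 0.52 (2.62-fold, adjusted p = 0.0186, and 0.101 without mouse 1 and 0.0676 without mouse 5). Liver and lung differed in Pdk4 by 0.30 (95% interval -0.74 to 1.33, adjusted p = 0.637), a value that became 1.05 without mouse 1 and -0.31 without mouse 4, neither called.

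Angptl4 spread widely in every tissue. In mice 1 to 5 it was 2.69, 0.19, 0.38, -0.45 and 1.64 in liver, 1.28, -0.08, -0.08, -0.91 and 0.55 in lung, and 0.46, -1.12, -0.65, -1.40 and 0.48 in forestomach. In each tissue mice 1 and 5 were the highest and mouse 4 the lowest. Liver exceeded forestomach by 1.34 ± 0.54 (2.53-fold, adjusted p = 0.0323), but leaving out mouse 1, 2, 3 or 5 moved the adjusted p to between 0.0507 and 0.0984, and mouse as a block to 9.93e-05. The call was also lost with the deposited ratios (1.03, adjusted p = 0.0865), with no filter (adjusted p = 0.0511) and without the 3 arrays that held markers of another tissue (1.17, adjusted p = 0.0815). Liver minus lung was 0.74 ± 0.54 (adjusted p = 0.237) and was called when the mouse was a block in the model (adjusted p = 0.0212), since each mouse gave all 3 tissues. Lung minus forestomach was 0.60 ± 0.54 (adjusted p = 0.371). Averaged over all 20 mice of each tissue, both were called, at 0.80 for liver minus lung (adjusted p = 0.0064) and 1.06 for lung minus forestomach (adjusted p = 0.000527).

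**Figure D2:**
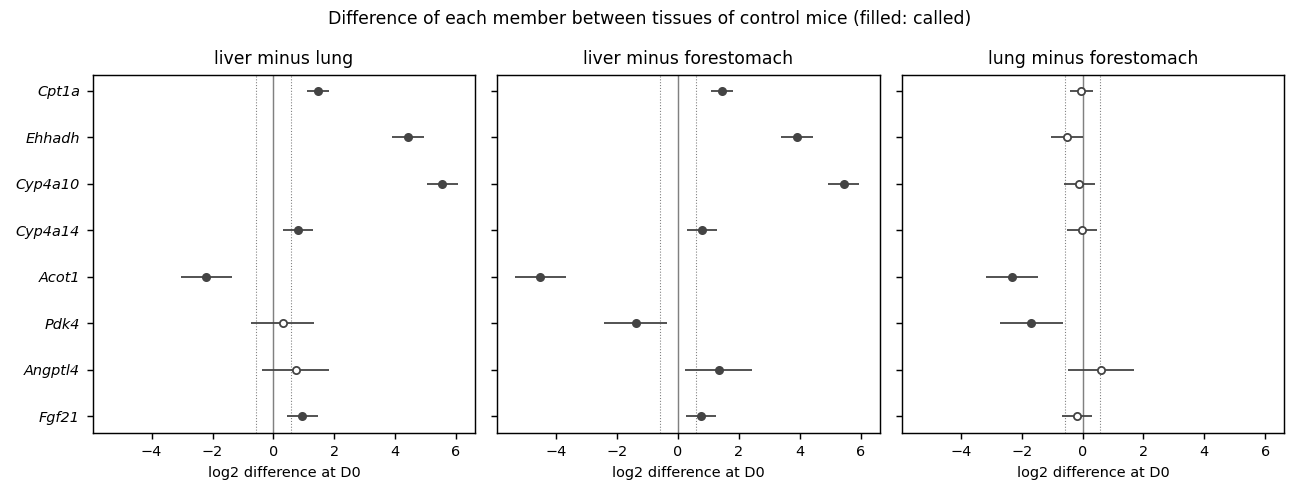
Log2 difference between tissues of the 5 control mice (horizontal axis) for the 8 genes (rows), with 95% intervals from the model of 12 groups. Filled points passed both the adjusted p (0.05) and the fold (1.5, dotted lines) needed for a call. For Cyp4a14 and Fgf21 in lung and forestomach the signal was not well above background. Acot1 lies below 0 in all 3 panels, and Cyp4a10 and Ehhadh stand farthest to the right in the liver panels.

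In counts, 5 of the 8 genes were called higher and 1 lower in liver than in lung, where 44.4% of all 33253 probes were called, 19% higher and 25.4% lower. Against forestomach 6 were higher and 2 lower in liver (39.2% of all probes called, 18.2% higher and 21% lower). With scanner-processed signals 18631 probes were called between liver and forestomach, 53.6% of them higher in liver, in place of 13039 with 46.5% higher. Between lung and forestomach 2 were lower in lung (33.3% of all probes called, 18.8% higher and 14.5% lower). The 5 mice of each tissue did not overlap for 4 of the genes between liver and lung, for 4 between liver and forestomach and for 1 between lung and forestomach, as in 50.2%, 38.3% and 28.7% of all probes. Cyp4a14 and Fgf21 passed the filter through the tissue in which they were called higher, so their calls add nothing to these counts, and without them 3 of 6 genes were higher and 1 lower in liver than in lung, and 4 of 6 higher and 2 lower than in forestomach. Liver arrays lay on slides of their own, so that liver and slide cannot be told apart in these differences.

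Some of the pathway genes named next were not well above background on any control array of the dimmer tissue. For these a lowest fold is given, from the red channel alone, beside the p of the log2 ratios, or no size where that fold exceeded the one from the ratios. A gene that passed the filter only in the tissue where it was bright had to differ, and such genes are part of the counts. Among 102 further genes of the pathway, listed by function, 63 were higher and 19 lower in control liver than in lung, where 19% of all probes were higher and 25.4% lower. All 4 ketogenesis genes were higher, among them Bdh1, which converts acetoacetate and beta-hydroxybutyrate into each other, by 5.21 ± 0.17. Of 17 mitochondrial beta-oxidation genes 14 were higher and none lower, led by Acads (3.11 ± 0.17) and Etfdh (2.86 ± 0.15). Of 11 peroxisomal genes 10 were higher, among them Crot, the peroxisomal carnitine octanoyltransferase (3.71 ± 0.28). Omega-oxidation genes were higher for 7 of 8, with Cyp4a12a well above background in 2 of 5 control lungs and Cyp4f14 in none. The receptor gene Ppara itself was 4.68 ± 0.43 higher in liver, and the liver transcription factor Creb3l3 was not well above background in control lung, whereas Pparg was 0.79 ± 0.25 lower.

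Of the acyl-CoA thioesterases, Acot12 was at least 42.7-fold (adjusted p = 4.06e-36) and Acot4 at least 2.55-fold higher (adjusted p = 1.62e-05) in liver than in lung, and Acot2, like Acot1, was lower, by at least 1.7-fold (adjusted p = 4.39e-06). Lipid uptake genes were mixed, 9 higher and 7 lower of 20. The bile acid and fatty acid ligases Slc27a5 (10.54 ± 0.56) and Slc27a2 (9.21 ± 0.50) led the first, and the fatty acid carrier Cd36 (-5.47 ± 0.19) and Vldlr (-4.11 ± 0.23) the second. Among the pyruvate dehydrogenase and secreted factor genes, Angptl8 (4.60 ± 0.22) was higher, and Fgfr1 (-3.04 ± 0.19) and Pdp1 (-2.35 ± 0.13) lower. The gluconeogenic genes Pck1 (9.02 ± 0.69) and G6pc (not well above background in control lung) were higher, and Mt1 (-2.44 ± 0.25) and the glucocorticoid-induced kinase Sgk1 (-2.23 ± 0.20) lower.

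Against forestomach, liver had 61 of the 102 genes higher and 15 lower (18.2% and 21% of all probes). Ppara was 3.00 ± 0.43 and Creb3l3 4.03 ± 0.35 higher, while Pparg (-1.80 ± 0.25) and Ppard (-1.48 ± 0.24) were lower in liver. Acot12 was at least 41.2-fold (adjusted p = 1.89e-36) and Acot13 0.97 ± 0.17 higher, and Acot2 (at least 2.13-fold, adjusted p = 2.59e-09) and Acot5 (-0.86 ± 0.31) were lower. All 4 ketogenesis genes were again higher. Genes of the other groups that were higher included Acads (2.49 ± 0.17) and Eci1 (2.34 ± 0.30), Acaa1b (2.31 ± 0.26), and Cyp4a12a (at least 362-fold, adjusted p = 3.89e-27) and Cyp4f14 (not well above background in control forestomach). Slc27a2 (9.87 ± 0.50), Slc27a5 (9.79 ± 0.56), Fgfr4 (5.19 ± 0.27), Pck1 (7.69 ± 0.69) and G6pc (well above background in 1 of 5 control forestomachs) were also higher in liver. The fat droplet genes Cidea (not well above background in control liver) and Plin4 (-3.27 ± 0.40), Pdk3 (at least 7.99-fold, adjusted p = 4.08e-16), Fgfr1 (-2.57 ± 0.19), Mt1 (-4.06 ± 0.25) and Mt2 (-4.99 ± 0.22) were lower. The fat cell mean was 1.18 to 5.37 in the control forestomachs, 0.26 to 2.39 in the lungs and 0.26 to 0.47 in the livers, and its part in the Cidea, Plin4 and Pparg values was not tested.

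Lung had 20 of the 102 higher than forestomach, a share near that of all probes (18.8%), and 34 lower (14.5% of all probes). Ppara was 1.68 ± 0.43 lower in lung and Creb3l3 at least 2.69-fold lower (adjusted p = 0.000435), and the corepressor Ncor1 (0.65 ± 0.11) was higher. Mitochondrial beta-oxidation genes were lower for 11 of 17 and higher for none, led by Cpt2 (-1.74 ± 0.14) and Hadh (-1.54 ± 0.15), and peroxisomal genes for 6 of 11, led by Crot (-1.93 ± 0.28) and Ech1 (-1.27 ± 0.17). Bdh1 (-4.03 ± 0.17), Acat1 (-0.84 ± 0.12), Acot4 (at least 1.84-fold, adjusted p = 0.00249), Acot8 (-1.17 ± 0.12), Cidea (-3.03 ± 0.49), Plin4 (-2.09 ± 0.40), Pdk3 (-1.36 ± 0.27), Pdk1 (-1.16 ± 0.16), Mt2 (-3.42 ± 0.22) and Mt1 (-1.62 ± 0.25) were likewise lower in lung. Higher in lung were Cd36 (3.57 ± 0.19), Cyp4f15 (at least 2.86-fold, adjusted p = 3.19e-06), Fgfr4 (3.84 ± 0.27), Fgfr3 (1.96 ± 0.24), Zbtb16 (2.54 ± 0.38) and Klf9 (1.92 ± 0.21). Fabp1 was higher by 2.07 ± 0.90, near the limit of a call (adjusted p = 0.0482), and its groups overlapped.

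None of the 8 genes was called at any dose of BghiP in any tissue, a call being a change of 1.5-fold or more with an adjusted p up to 0.05, in comparisons where 0% of all probes were called by limma. At an unadjusted p under 0.05, 7 of the member comparisons passed: Cpt1a at D2 and D3 in lung, at D2 and D3 in liver and at D1 and D2 in forestomach, and Ehhadh at D1 in forestomach. Of all probes, 2.22%, 3.4% and 4.81% passed that mark at D1, D2 and D3 in lung, 3.03%, 4.15% and 12.1% in liver, and 9.36%, 3.66% and 1.5% in forestomach. The exposed and control mice overlapped for every member in lung and liver, where 0.303% to 2.73% of probes did not overlap.

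Cpt1a in liver had its highest mean in D3 by both of its probes. Its values by the brighter probe were 2.53, 2.54, 2.50, 2.16 and 2.42 at D1, 2.35, 3.14, 2.26, 2.48 and 3.00 at D2, and 3.1, 2.63, 3.04, 2.44 and 2.52 at D3. All 5 D3 livers exceeded the D0 mean of 2.28, but control mouse 1 (2.68) lay among them. The difference from D0 was 0.15 ± 0.17, 0.36 ± 0.17 and 0.47 ± 0.17 at D1, D2 and D3 (at D3 1.38-fold, 95% interval 0.11 to 0.82, adjusted p = 0.279). The other Cpt1a probe gave 0.45 ± 0.19 at D3. Leaving out each mouse or changing the processing kept the D3 value between 0.38 and 0.57, with adjusted p from 0.17 to 0.526. Its slope on dose in liver was 0.19 ± 0.06 log2 units per 10 mg/kg-bw/day (adjusted p = 0.162), in a comparison in which 0.239% of all probes were called.

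In lung, Cpt1a was 1.20, 0.81, 1.26, 0.65 and 0.96 at D1, 1.31, 1.29, 0.94, 0.92 and 1.45 at D2, and 1.45, 1.09, 1.47, 0.90 and 1.26 at D3. Control mice 1 and 5, both at 1.21, overlapped with every exposed group. The difference from D0 was 0.17 ± 0.17, 0.37 ± 0.17 and 0.43 ± 0.17 (at D3 95% interval 0.07 to 0.78, adjusted p = 0.936, and 0.108 with slide as a block). The other probe gave 0.14 ± 0.14, 0.12 ± 0.14 and 0.08 ± 0.14 at D1, D2 and D3, with its highest mean in D1, and the mean over both probes was 0.26 at D3. The brighter probe's order of doses in lung was thus not shared by the other. In forestomach, Cpt1a was 1.09, 1.65, 1.05, 1.88 and 1.07 at D1, 1.56, 1.46, 1.22, 1.27 and 1.28 at D2, and 1.25, 0.88, 0.64, 0.84 and 0.94 at D3. It was 0.50 ± 0.18 above D0 at D1 (adjusted p = 0.506) and 0.51 ± 0.18 at D2 (adjusted p = 0.998), where D0 and D2 did not overlap, as in 0.535% of all probes. At D3 it was 0.07 ± 0.18 (95% interval -0.31 to 0.45). The other probe gave 0.32 ± 0.22, 0.42 ± 0.22 and 0.17 ± 0.22 at D1, D2 and D3 in forestomach, and its D0 and D2 groups overlapped.

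Ehhadh at D1 in forestomach was 1.76, 2.72, 1.11, 3.09 and 3.09, that is 0.98 ± 0.39 above D0 (1.98-fold, adjusted p = 0.506, and 0.181 with slide as a block). Each D1 mouse exceeded the control mouse on its slide. It was called (adjusted p = 0.029) only when all 60 arrays shared 1 estimate of spread, a fit that called 699 probes in that comparison. The D1 forestomachs of mice 7, 8, 9 and 10 had glandular stomach means of 6.44 to 7.98, and the controls 0.70 to 6.93. The hepatocyte mean of the 5 D1 forestomachs was 0.14, 3.20, 1.66, 2.96 and 3.45, and that of the controls 0.31 to 2.12, within a range of 0.03 to 3.62 over all 20. Ehhadh had r = 0.55 with the hepatocyte mean and 0.37 with the glandular stomach mean over the 20 forestomachs (adjusted p = 0.152 and 0.358, permutation test). Of the hepatocyte genes, Apoa1, Ttr and Hnf4a were well above background on 15 of 20 forestomach arrays each, Tat on 13 and Alb on 12. Fga was so on 3 and Cps1 on 1, so this mean need not mark hepatocytes in forestomach. The part of cell makeup in the Ehhadh values was not tested. Angptl4 in the same comparison was -0.06, -2.53, -0.62, -3.06 and -1.07 at D1, which was 1.02 ± 0.55 below D0 (95% interval -2.18 to 0.14, adjusted p = 0.567), and mice 7 and 9 were the lowest of all 20.

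Differences of the other genes at D3 were small beside their spread. In liver they ran from -0.35 ± 0.41 (Pdk4) to 0.27 ± 0.57 (Angptl4), with Ehhadh at 0.03 ± 0.13, Cyp4a10 at -0.30 ± 0.24, Cyp4a14 at 0.03 ± 0.37, Acot1 at 0.22 ± 0.25 and Fgf21 at 0.01 ± 0.34. The 95% interval of Ehhadh in liver, -0.23 to 0.30, lay within 1.5-fold in both directions, and that of Angptl4, -0.92 to 1.45, did not. In lung, Pdk4 at D3 was -0.47 ± 0.43, and 0.09 without control mouse 1. The remaining lung values were 0.16 ± 0.17 (Ehhadh), -0.02 ± 0.12 (Cyp4a10), -0.12 ± 0.14 (Acot1) and 0.10 ± 0.38 (Angptl4). In forestomach, Acot1 was 0.59 ± 0.64, Pdk4 0.50 ± 0.60, Cyp4a10 0.22 ± 0.32, Ehhadh 0.05 ± 0.39 and Angptl4 -0.22 ± 0.55 from D0. Of the other pathway genes tested (93 in lung, 97 in liver and 89 in forestomach) none was called at any dose. With slide as a block, 1 of them had an adjusted p under 0.05, at D3 in lung, with a change below 1.5-fold. Their median difference at D3 was 0.01, 0.04 and 0.03, and that of all probes 0.01, 0 and 0.01. At D2 in forestomach 72 of the 89 genes were above D0 and 15 below, with a median of 0.13 against 0.03 over all probes, of which 55.6% were above D0. The median of the 6 members tested there was 0.40, without any call. In the same D2 forestomachs the hepatocyte mean was 0.03, 2.45, 2.67, 2.22 and 3.62, and the glandular stomach mean 0.73, 7.14, 6.91, 6.69 and 2.98. In the controls these were 1.29, 2.12, 1.22, 1.25 and 0.31, and 1.25, 6.93, 6.19, 1.25 and 0.70. The hepatocyte mean was thus above every control in 4 of the 5 D2 mice and the glandular mean in 1, and their part in the D2 values was not tested. No member's change at D3 was called as different between tissues, and no probe was (0%).

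**Figure D3:**
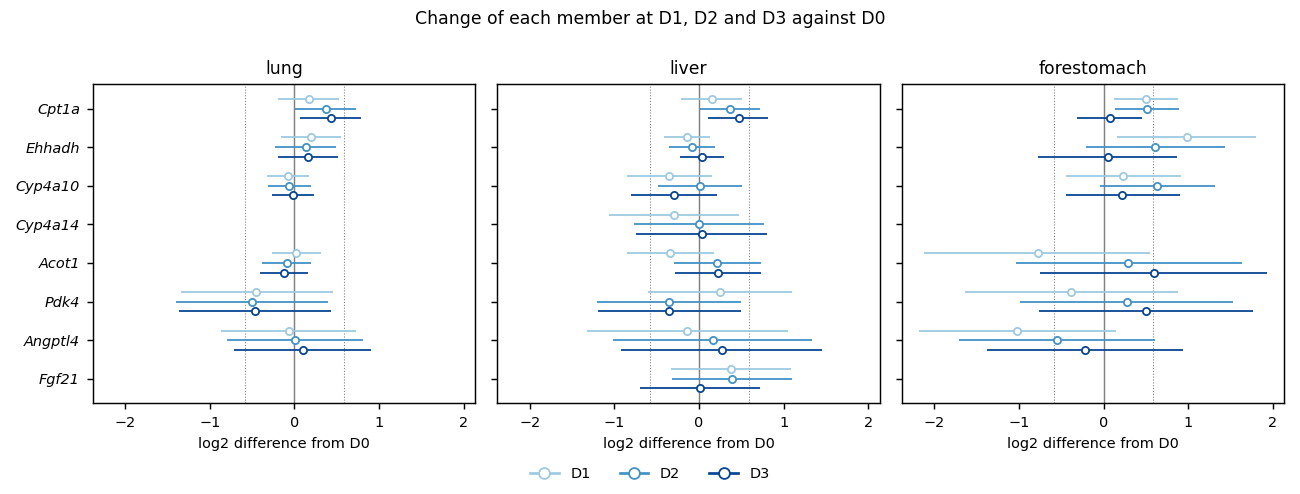
Log2 difference from D0 (horizontal axis) of each gene (rows) at D1, D2 and D3 (light to dark) in 3 tissues, with 95% intervals from limma on 20 arrays per tissue. Open points were not called, and dotted lines mark 1.5-fold. By its brighter probe, which is the one plotted, Cpt1a in lung and liver is farther to the right at each higher dose, with no point called, an order that the other lung probe did not share. Within each panel the intervals are widest for Pdk4 and Angptl4, and in forestomach also for Acot1. Cyp4a14 and Fgf21 were not tested in lung and forestomach.

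Mice of the same dose differed widely in several members. In liver, the SD between mice of the same dose was 1.03 for Angptl4, more than in 99.8% of the 25890 probes tested there, 0.74 for Pdk4 (99.4%), 0.66 for Cyp4a14 (99.2%) and 0.61 for Fgf21 (98.9%). It was 0.44 for Acot1, 0.43 for Cyp4a10, 0.29 for Cpt1a and 0.21 for Ehhadh, and the median over all probes was 0.19. In forestomach the SD was 1.08 for Acot1, 1.02 for Pdk4 and 0.94 for Angptl4, and in lung 0.74 for Pdk4 and 0.66 for Angptl4. The lung SD of Pdk4 rested on control mouse 1, the SD of D0 being 1.29 and that of the exposed groups 0.38 to 0.48. On the forestomach arrays of slide 3, 21.3% to 27.1% of probes were well above background, and on those of slide 5 49.4% to 53.3%. Mean forestomach Pdk4 was 1.60 on slide 3 and 3.68 on slide 5.

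With values centred within dose, 58 pairs of members were correlated over the 20 mice of a tissue, and adjusted p-values come from a two-sided permutation test over all 58. Among all pairs of probes tested in the same tissue, the lowest r that passed among members was reached by 7.93% in lung, 1.36% in liver and 8.75% in forestomach. In liver 3 of 28 pairs passed: Cyp4a14 with Acot1 (r = 0.77, rho = 0.72, adjusted p = 0.00362), Cpt1a with Fgf21 (r = 0.73, rho = 0.69, adjusted p = 0.00406) and Cpt1a with Angptl4 (r = 0.68, rho = 0.64, adjusted p = 0.013). Without the 2 mice farthest from the median of the first gene these were 0.70, 0.62 and 0.68, and centred also within slide 0.87, 0.67 and 0.65. Without those mice Cpt1a with Fgf21 and Cpt1a with Angptl4 did not pass (adjusted permutation p = 0.08 and 0.0574). Cyp4a14 was well above background on only 9 of the 20 livers. Of the 28 liver coefficients 23 were positive, with a median of 0.29, and 51.1% of all pairs of probes were positive there. Pdk4 in liver had r from -0.48 (Angptl4) to 0.38 (Ehhadh) with the other members, and Cyp4a10 from -0.10 to 0.26, and none of these passed. Control mouse 4 was the lowest of the 5 in liver Angptl4 (-0.45) and the highest in Pdk4 (2.49). Ehhadh followed the hepatocyte marker mean of the liver (r = 0.76, rho = 0.69, adjusted p = 0.0495 for r and 0.0857 for rho over 140 pairs of a gene and a marker list, and r = 0.43 centred also within slide), a relation examined after the values were seen.

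In lung, Cpt1a, Acot1, Pdk4 and Angptl4 formed 6 pairs that all passed, from Cpt1a with Pdk4 (r = 0.62, rho = 0.70, adjusted p = 0.0201) to Cpt1a with Angptl4 (r = 0.79, rho = 0.79, adjusted p = 0.00362). Without the farthest 2 mice their r was 0.56 to 0.82, and centred also within slide 0.28 to 0.65. In the first of these settings 2 pairs passed and in the second 3. Leaving out the lung arrays of mice 1 and 20 left 4 of the 6 pairs. Ehhadh and Cyp4a10 were in none of these pairs. Pdk4 in lung had r = 0.84 with the skeletal muscle mean, which was 0.42 without the farthest 2 mice and so rested on them. With the heart muscle mean, which was 0.29 to 4.51 in lung, it had r = 0.67 and rho = 0.78 (adjusted p = 0.0553 and 0.0238, permutation test), and r = 0.63 without the farthest 2 mice and 0.39 within dose and slide. Acot1, Cpt1a and Angptl4 had r = 0.58, 0.57 and 0.54 with the heart muscle mean (adjusted permutation p = 0.135 each), and Ehhadh and Cyp4a10 0.28 and 0.14. Within dose and slide the values of Acot1, Cpt1a and Angptl4 were 0.14, 0.19 and 0.34. The part of muscle in the lung values was not tested.

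In forestomach, Acot1, Pdk4 and Angptl4 varied together: r was 0.86 for Acot1 with Pdk4 (rho = 0.91, adjusted p = 0.00174), 0.83 for Acot1 with Angptl4 (rho = 0.83, adjusted p = 0.00362) and 0.66 for Pdk4 with Angptl4 (rho = 0.71, adjusted p = 0.0394). Without the farthest 2 mice they were 0.88, 0.70 and 0.56, and centred also within slide 0.90, 0.78 and 0.89. Cyp4a10 correlated with Ehhadh (r = 0.60, rho = 0.64, adjusted p = 0.0489) and Pdk4 (r = 0.59, rho = 0.63, adjusted p = 0.0438), and the latter was -0.35 within dose and slide. The former was 0.20 with processed signals, 0.49 without the farthest 2 mice and 0.50 within dose and slide, and passed in none of these. Within dose and slide the median r of the 15 forestomach pairs went from 0.37 to -0.34, and the pairs that passed, beside those of Acot1, Pdk4 and Angptl4, were Cpt1a with Ehhadh (0.63) and Ehhadh with Acot1 (-0.65, both with an adjusted permutation p = 0.0277). Markers of other cells moved with Acot1 and Angptl4. None of the 7 lists passed with Pdk4, though some of its coefficients were of like size. With the fat cell mean Pdk4 had r = 0.65 and rho = 0.63 (adjusted permutation p = 0.0913 and 0.092). With the glandular stomach mean it had r = -0.59 and rho = -0.65 (adjusted permutation p = 0.135 and 0.0857). Without the farthest 2 mice these r were 0.49 and -0.76, and within dose and slide 0.24 and -0.64. Over the same 140 pairs, Acot1 had r = -0.69 and rho = -0.72 with the glandular stomach mean (adjusted p = 0.0495 and 0.0308). Angptl4 had r = 0.65 and rho = 0.64 with the fat cell mean (adjusted p = 0.0495 and 0.0857), and r = -0.67 and rho = -0.71 with the glandular stomach mean (adjusted p = 0.0553 and 0.0429). Without the farthest 2 mice r was -0.81, 0.58 and -0.69, and within dose and slide -0.59, 0.41 and -0.57. With the hepatocyte mean Angptl4 had r = -0.70 and rho = -0.64 (adjusted permutation p = 0.0553 and 0.0871), and r = -0.85 without the farthest 2 mice and -0.68 within dose and slide. The forestomach of mouse 9 showed both ends, with the highest glandular mean (7.98) and the lowest Acot1 (1.04) and Angptl4 (-3.06). Whether cell makeup accounts for the correlations was not tested.

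**Figure D4:**
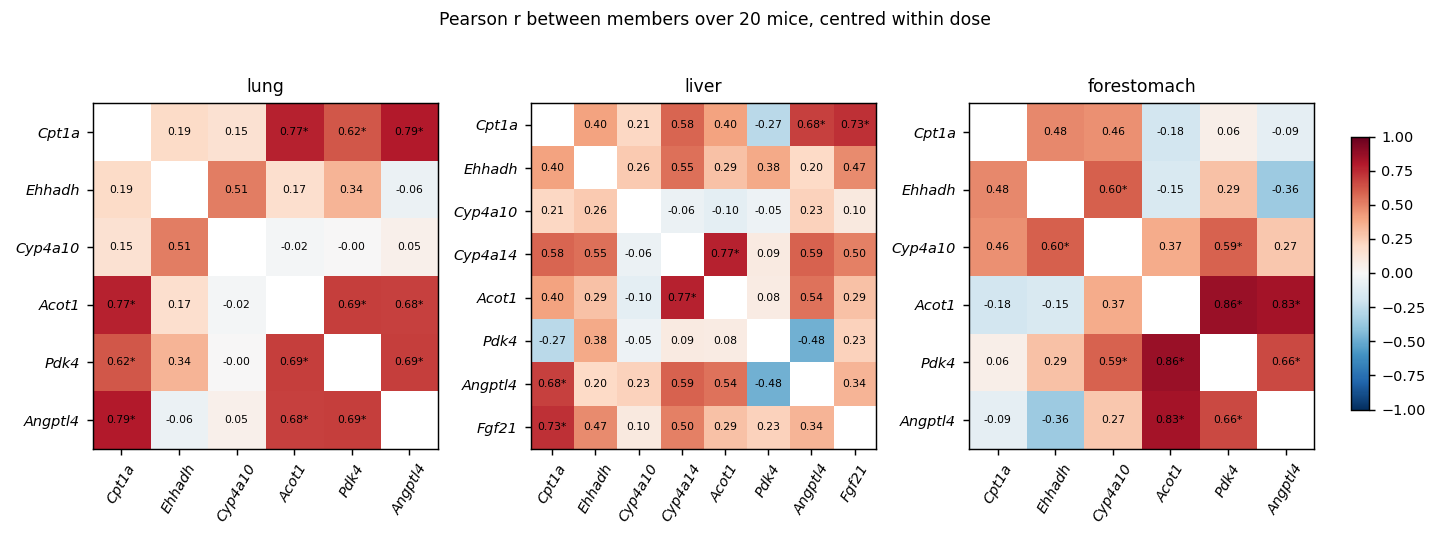
Pearson r between members over 20 mice of each tissue, values centred within dose. Colour and number give r, and a star marks pairs with an adjusted p up to 0.05 over the 58 pairs. The starred blocks are Cpt1a, Acot1, Pdk4 and Angptl4 in lung and Acot1, Pdk4 and Angptl4 in forestomach, and liver has 3 starred pairs. Cyp4a10 is also starred with Ehhadh and with Pdk4 in forestomach.

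Angptl4 also varied together across tissues of the same mouse. Over 20 mice and centred within dose, r was 0.87 between lung and forestomach (rho = 0.87, adjusted p = 0.00108), 0.73 between lung and liver (rho = 0.75, adjusted p = 0.00846) and 0.72 between liver and forestomach (rho = 0.79, adjusted p = 0.00846). These permutation p-values are adjusted over 18 pairs of a gene and 2 tissues, and the pairs were examined after the values were seen. Without the farthest 2 mice r was 0.83, 0.64 and 0.72, and without the 3 arrays that held markers of another tissue 0.89, 0.65 and 0.71. Among all probes tested in both tissues, 97.9%, 99.1% and 99.5% had an r as low or lower, and the median r over all probes was 0.32, -0.01 and -0.02. Lung and forestomach share slides and liver does not.

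Part of this pattern lay along the order of the mice. The lung and forestomach arrays of the first mouse of each dose group lay on slide 1, those of the second on slide 2, and so on, so that order number and slide cannot be told apart in these tissues. Mean Angptl4 of the 4 mice with order number 1 to 5 was 0.67, -0.02, 0.41, -0.68 and 0.42 in lung, 0.11, -1.47, -0.78, -1.86 and -0.48 in forestomach, and 1.98, 0.62, 0.91, -0.15 and 1.46 in liver. Order number 1 was the highest and 4 the lowest in all 3 tissues. Liver arrays lay on 3 other slides, but there too all arrays of order numbers 1, 3 and 5 lay on 1 slide each, so order number and slide were largely confounded. Centred within dose and slide, r was 0.74 between lung and forestomach, 0.33 between lung and liver and 0.19 between liver and forestomach.

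**Figure D5:**
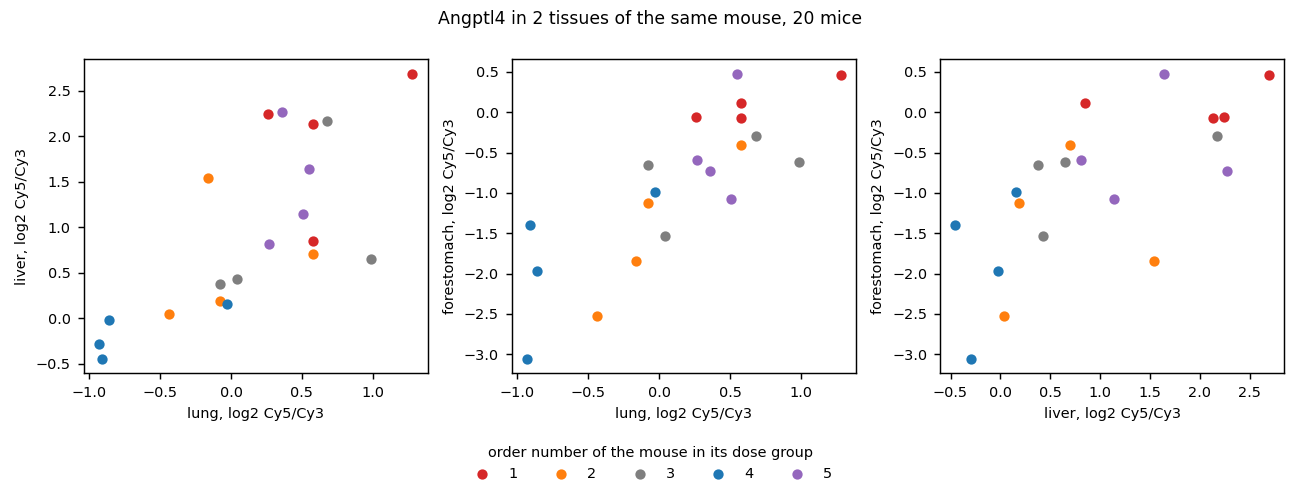
Angptl4 log2 ratio in 2 tissues of the same mouse, with 1 point per mouse and 20 mice in each panel. Colours give the order number of the mouse within its dose group. Points climb from lower left to upper right in each panel, with order number 4 at the lower left and order number 1 toward the upper right.

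Acot1 correlated between lung and liver (r = 0.70, rho = 0.66, adjusted p = 0.0151) and between lung and forestomach (r = 0.69, rho = 0.73, adjusted p = 0.0151), and Cpt1a between lung and liver (r = 0.59, rho = 0.62, adjusted p = 0.0336). Without the farthest 2 mice r was 0.49, 0.64 and 0.57, and centred within dose and slide 0.69, 0.33 and 0.57. Against all probes these were at the 98.9th, 86.4th and 97.3rd percentile. Ehhadh between lung and forestomach (r = 0.55, rho = 0.59, adjusted p = 0.0447, and 0.57 without the farthest 2 mice) was -0.19 within dose and slide. Pdk4 between lung and forestomach had r = 0.50 (adjusted p = 0.0932) and rho = 0.71 (adjusted p = 0.00661), and 0.02 within dose and slide. Between liver and forestomach it was 0.11 and between lung and liver -0.41, neither of which passed, and within dose and slide these were 0.63 and -0.26. Of the relations that did not pass, the most negative were Cyp4a10 between lung and liver (r = -0.53, rho = -0.48, adjusted p = 0.0832) and Ehhadh between liver and forestomach (r = -0.45, rho = -0.46, adjusted p = 0.0932).

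The genes most like the 8 in liver, by median r over 20 mice among 12875 named genes, were Ypel3, Psmd9, Acadm, Casp6, Pip4k2c, Nectin3, Gabarapl1, Sun3, Rhbdd3 and Creg1, with medians from 0.66 to 0.61. Acadm, the medium-chain acyl-CoA dehydrogenase of mitochondrial beta-oxidation, ranked 3rd, with r = 0.82 to Cyp4a14, 0.75 to Cpt1a and 0 to Pdk4. Of the 20 livers, 9 were well above background for Cyp4a14. In lung the first 5 of 14523 genes were Ndufa5, Uqcrc2 and Atp5g1, which code for parts of the mitochondrial respiratory chain and ATP synthase, and Ubxn6 and Dennd4b, with medians from 0.76 to 0.69 over the 6 members tested there. These 5 genes had r from -0.19 to 0.17 with Cyp4a10 and from 0.06 to 0.30 with Ehhadh. In forestomach Usp34, Paip2, Slc9a9 and Angel1 were among the first 5 of 13319, each with a median of 0.70 over the 6 members tested there. Their r was 0.10 to 0.26 with Cpt1a and 0.10 to 0.28 with Ehhadh. Likeness is a description over mice that share slides and cell makeup, and carries no test.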

How the data were processed

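Two-colour arrays (Agilent SurePrint G3 Mouse GE 8x60K) of 60 RNA samples were read from the scanner files. Red and green median intensity values were deposited by the authors as the scanner program (Feature Extraction 10.7.3.1) gave them, per the file headers, and a table of log2 ratios made by the authors, normalised with LOWESS, was deposited too. The recomputed ratios had correlations of 0.992 to 0.999 with these.

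Here, median signals without background subtraction were normalised by loess within arrays with limma 3.58.1 in R 4.3.3. Control spots (3671 of 62976) and non-uniform spots (0.0361% of values) were left out, and spots of a probe were averaged. Symbols came from RefSeq transcripts, for 26413 of 55681 probes. Probes well above background in red on at least 5 of 20 arrays of a tissue were tested with lmFit and eBayes, each dose against D0 and as a slope on dose within a tissue. Tissues were compared in a model of 12 groups over 33253 probes. P-values were adjusted by Benjamini-Hochberg over all probes, and calls needed an adjusted p of 0.05 or less and 1.5-fold (slopes, the p alone). Intervals are 95%. The study's own test, a permuted analysis of variance, was not run here. Correlations used 100000 permutations within dose, which can give no p below 1e-05. The functions were tested on simulated data.

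Every slide of lung and forestomach held 1 array of each dose per tissue, and each dose had its own column of the slides, so column and dose cannot be told apart. Array number limits the precision. A mouse number marks the same animal in each tissue. Deviations of the same mouse had a median correlation over probes of 0.25 between lung and forestomach, 0.07 between liver and lung and 0.01 between liver and forestomach, and mouse as a block was an alternative. Others were the background correction, scanner-processed signals, the deposited ratios, scaling, filters, slide as a block, the variance model, and leaving out each mouse.

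The named genes are the 8 members, the 2 listed pathway genes with the largest called D0 difference in each direction and list, and those most like the members. Some genes that this rule names are not reported here. The members and lists were chosen with earlier results of these data known.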

Additional observations from a re-analysis of the deposited data

Results flagged for a closer look

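Of 80 groups of 5 mice (a gene in a tissue and dose), 5 held a mouse whose gap to the nearest of the others took up over 0.71 of the group's range, and chance gives about 1 in 20 such groups. Mouse 19 of D3 was low for Angptl4 in lung (-0.86, next 0.27) and in forestomach (-1.97, next -0.59), and for Cyp4a10 in liver (5.08, next 5.94). Mouse 1 of D0 was high for Pdk4 in lung (3.03, next 0.69), and mouse 15 of D2 for Ehhadh in lung (1.48, next 0.95).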

How the results depend on the processing

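No member was called at any dose under the alternatives run, other than Ehhadh at D1 in forestomach with all 60 arrays in 1 fit (1 member, 699 probes, and 4 probes at D3 in liver). A slide block gave 21 called probes for D3 in lung and 24 in liver, 95 and 678 for the slopes in lung and liver (0 and 62 without it), and 1 and 2 for the D3 change of liver against lung and forestomach. Scanner-processed signals called 1 probe at D3 in lung, 5 in liver and 119 for the liver slope, a filter on all arrays 170 and a variance trend 139 for that slope. They also moved member values without a call. Liver Fgf21 at D1, D2 and D3 went from 0.38, 0.39 and 0.01 to 0.87, 0.85 and 0.36 with processed signals. Forestomach Cyp4a10 at D2 and D3 went from 0.63 and 0.22 to 1.25 and 0.60. Leaving out each mouse in turn gave 0 to 239 liver slope calls (0 without mouse 3, 17, 19 or 20, and 239 without mouse 1), 0 to 29 calls at D3 in liver (29 without mouse 1), and 0 to 1 for the D3 change of liver and of lung against forestomach (1 without mouse 5). Member calls between tissues at D0 then ran from 5 to 6 (liver and lung), 5 to 8 (liver and forestomach, 5 without mouse 1 or 5) and 1 to 2 (lung and forestomach, 1 without mouse 5), and probe calls from 14423 to 15111, 12583 to 13419 and 10172 to 11687. Averaged over all doses, lung and forestomach differed in 4 members, Acot1 and Pdk4 as in the controls and also Ehhadh (-0.79, adjusted p = 5.86e-07) and Angptl4 (1.06, adjusted p = 0.000527). With mouse as a replicate block, Angptl4 was also called between liver and lung (0.74, adjusted p = 0.0212), and it changed no other call of a member. Quantile scaling of average signals leaves ratios as they are. No scaling moved the median of all probes by over 0.1.

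Pairs of members past the threshold in lung, liver and forestomach (6, 3 and 5) became 2, 1 and 1 without the 2 mice farthest from the median. They became 3 in lung and 5 in liver within dose and slide, and 6 in liver with rho. In forestomach they became 3 with processed signals, 2 with the deposited ratios and 2 without the 3 arrays that held markers of another tissue, an alternative chosen after seeing the data. Cyp4a10 with Pdk4 in forestomach turned to -0.35, and Ehhadh between lung and forestomach to -0.19, within dose and slide. The cause was not tested. In liver, Cyp4a14 is limited by few arrays well above background (9 of 20), and Fgf21 less so (16 of 20).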
